A study of Mus musculus with 20 samples.

Results

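The difference between the stimulation responses of Pcbp2-deleted and control T cells was examined in 14446 genes, those of the 49315 genes in the count table whose mean reached at least 1 CPM, the count scaled to library size, over the 20 libraries. For each gene the difference of responses is the log2 change from 0 h to 6 h in deleted cells minus the log2 change from 0 h to 6 h in control cells. A negative difference means that a gene was raised less, or lowered more, in deleted cells; a positive one means the reverse. Mouse splenic T effector cells, sorted as CD4+CD25-, came from animals with a floxed Pcbp2 gene (Fl-Pcbp2, CTL) or from littermates that also carried CD4cre (Fl-Pcbp2/CD4cre, CKO), so that both genotypes carry the floxed gene and only CKO carries the recombinase. The Cd4 promoter drives Cre in developing T cells, so the deletion precedes the sort. Cells were taken unstimulated (0 h; 6 CTL and 6 CKO libraries) or 6 h into stimulation by CD3/CD28 beads (6 h; 5 CTL and 3 CKO libraries). A culture kept for 6 h without beads is not among the groups, so time in culture and stimulation cannot be told apart. Libraries are named by the number in their title, such as 4.24. The labels do not tie a number to an animal, so p-values measure the spread between these libraries, which may in part be technical. The labels give neither age nor strain.

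Pcbp2 is a poly(C)-binding protein, a KH-domain RNA-binding protein that takes part in splicing, mRNA stability and translation. Signals from the antigen receptor and CD28 switch a resting T cell within hours to a transient set of transcription factors (the NR4A, EGR, AP-1 and NF-kB families). They also induce cytokines and their receptors and the machinery of ribosome synthesis, while genes of the resting state are turned down. A genotype can act on this programme by changing where it starts, how far it goes, or both. The difference of responses addresses only how far each gene moved.

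Both genotypes ran the same broad response and no gene passed the test for a different one. In CTL, 4022 genes rose (27.8% of those tested) and 3479 fell (24.1%) at an adjusted p under 0.05 in edgeR's quasi-likelihood test. In CKO, 2365 rose (16.4%) and 2557 fell (17.7%). The 4269 genes that were called in both moved in the same direction in all 4269 cases; they are 56.9% of the CTL calls and 86.7% of the CKO calls. For the difference of responses, 0 of 14446 genes were called (0%), and the smallest adjusted p was 0.672. At an unadjusted p under 0.05 there were 723 genes (5%), 261 with a positive difference (1.81%) and 462 with a negative one (3.2%). In the 9013 genes with a mean of at least 10 CPM the split was 235 positive and 214 negative. With the library number as a block it was 213 positive and 176 negative in an additive fit and 395 and 292 with a random block, whereas the sex label as a covariate gave 1533 genes, 495 positive and 1038 negative, with 0 called in each of these 3 fits. DESeq2 had 935 genes at an unadjusted p under 0.05 and called 1, Pcbp2 itself (-0.98, adjusted p = 0.037). Leaving out CKO library 11.18 at 6 h gave 1 call in edgeR, Frmd4b (-1.77, adjusted p = 0.0493), a scaffold gene picked out here for that call. The count at an unadjusted p under 0.05 moved strongly with single libraries, from 213 without CKO 5.13 at 6 h and 302 without CKO 5.6 at 6 h to 1658 without CKO 11.18 at 6 h and 2122 without CTL 5.13 at 6 h.

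One library stood apart from the rest of its group in depth and profile and enters the contrast directly. CTL library 4.24 at 6 h held 26427467 counts, whereas the other 19 libraries held 62402807 to 85608113. In it 6.47% of counts fell outside protein-coding genes, against 2.41% to 4.36% in the other libraries, and its median correlation with the CTL libraries of its group was 0.875, against 0.979 to 0.981 among the other 4. Without this library the difference of responses again gave 0 calls of 14446 (0%), with a smallest adjusted p of 0.872. The genes at an unadjusted p under 0.05 then numbered 526 (3.64%), and the balance turned to 322 positive (2.23%) and 204 negative (1.41%). The median difference over all genes was -0.043 with the library and 0.004 without it, both on the log2 scale. Estimated differences of responses and list medians are therefore given below with and without library 4.24; levels, responses and counts of called genes come from all 20 libraries unless stated. Among the unstimulated CTL libraries, which enter the CTL response, 4.24 and 5.6 had summed mitochondrially encoded levels of 24154 and 28254 CPM, against 12756 to 14123 in the other 4. In CTL 5.6 at 0 h Cd8a, a marker of CD8 T cells, measured 63.1 CPM, against at most 11.1 CPM in the other 5. Leaving out CTL 4.24 or CTL 5.6 at 0 h, one at a time, again gave 0 calls, with 739 and 732 genes at an unadjusted p under 0.05.

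The spread between libraries and their number bound how large an undetected difference could be. The standard error of the difference had a median of 0.23 log2 units (0.18 without library 4.24). The 95% interval of the difference lay wholly between -1 and 1, a factor of 2 either way, for 9835 genes (68.1%), and for 11431 genes (79.1%) without the library. A larger estimate, beyond 1 in either direction, was found in 1102 genes, but in 50 of the 9013 genes with a mean of at least 10 CPM; without library 4.24 these counts were 240 and 30. For genes whose interval reached beyond -1 or 1, a factor of 2 was not excluded at this spread and number of libraries.

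Across the 14446 genes, the CKO response plotted against the CTL response had a Pearson correlation of 0.89 and an orthogonal slope of 0.83. Without library 4.24 the correlation was 0.94 and the slope 1.01, and the calls rose to 28% higher and 27.5% lower in CTL (55.5% in all) and to 23.3% higher and 23.8% lower in CKO (47.1% in all), from 51.9% and 34.1% in all with it. Genes are not independent replicates, and these figures describe the libraries. The plot of CKO against CTL responses shows the cloud turning onto the line of equal responses when the library is left out.

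**Figure D1:**
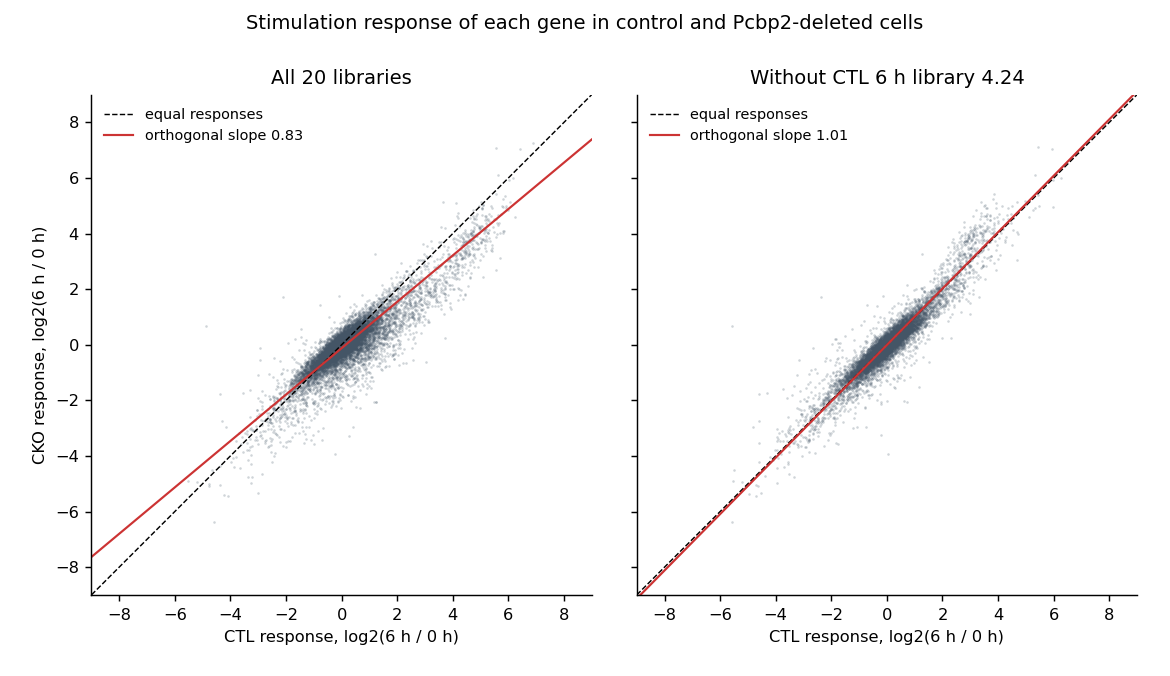
Log2 change from 0 h to 6 h of each of the 14446 genes (points) in CTL (x axis) and CKO (y axis), with all 20 libraries (left) and without CTL 6 h library 4.24 (right). The dashed line marks equal responses and the red line the orthogonal fit, whose slope is 0.83 on the left and 1.01 on the right.

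Libraries of the same number and genotype allow the response to be followed pair by pair, in 5 CTL and 3 CKO pairs. Only the number 5.13 has both genotypes at 6 h. For the other numbers, genotype and number cannot be told apart at that time. The slope of each pair's response on the mean response over both genotypes was 1.04 for CTL 4.29, 1.25 for CTL 4.24, 0.847 for CTL 5.13, 1.10 for CTL 9.20 and 1.07 for CTL 10.28. In CKO it was 0.865 for 5.13, 0.878 for 5.6 and 1.07 for 11.18. The ranges overlapped: the smallest slope of all belonged to a CTL pair, and the CKO pair 11.18 lay among the CTL pairs. The pair CTL 4.24 had the lowest correlation with the mean response, 0.698, against 0.875 to 0.940 in the other 7. In a fit of these pairs alone with the number and genotype as a block, 0 genes were called (0%) and 344 had an unadjusted p under 0.05 (2.38%), or 482 (3.34%) without library 4.24. The responses of all 3 CKO pairs lay above those of all 5 CTL pairs in 209 genes (1.45%) and below them in 235 (1.63%). In the 9013 genes with a mean of at least 10 CPM these counts were 178 above and 56 below.

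**Figure D2:**
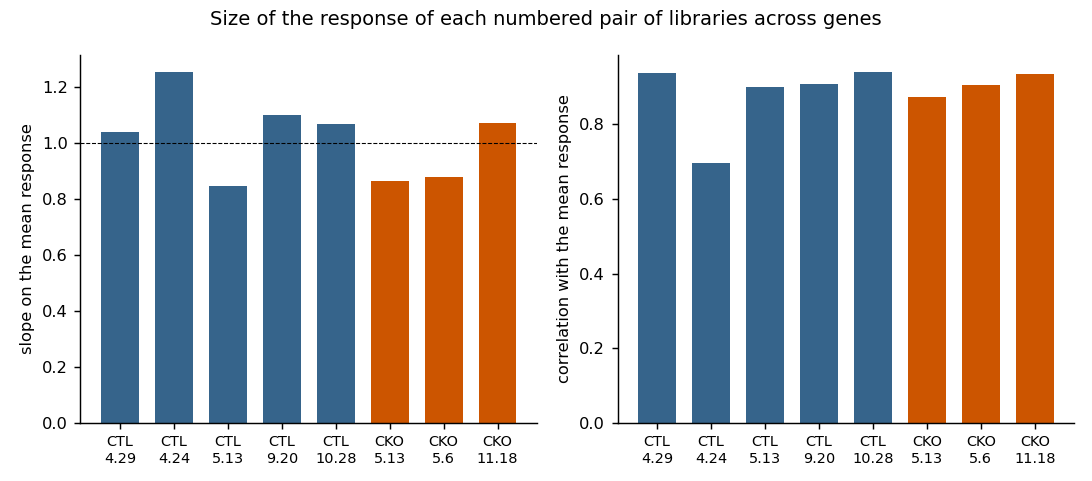
Slope (left) and Pearson correlation (right) of the response of each numbered pair of libraries on the mean response, across 14446 genes; bars are single pairs, CTL in blue and CKO in orange. CTL pair 4.24 has the largest slope (1.25) and the lowest correlation (0.698).

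The targeted gene gave the difference with the smallest p among the genes described here. Pcbp2 (ENSMUSG00000056851; GRCm38 chromosome 15, 102470539 to 102500061, plus strand) measured 256 to 368 CPM in the CTL libraries at 0 h (median 312), and 368, 341, 361, 335 and 374 CPM in those at 6 h. In CKO it measured 12.7 to 21 CPM at 0 h (median 16.1) and 7.56, 7.70 and 11.7 CPM at 6 h. The CKO mean was thus 5.03% of the CTL mean at 0 h (p = 0.00216 in an exact permutation test, two-sided, over 924 assignments) and 2.53% at 6 h (exact p = 0.0179, the smallest that 56 assignments allow). Pcbp2 fell further in stimulated CKO cells, by 0.83 on the log2 scale (adjusted p = 0.000586), while the change in CTL was 0.16 (adjusted p = 0.316). The difference was -0.99 ± 0.21 (standard error), with a 95% interval of -1.43 to -0.56 and an unadjusted p of 0.000121, and was not called over all genes (adjusted p = 0.672). It was -1.0 without library 4.24 and -1.10 in the pairs, where the CKO responses of -0.47 to -1.36 lay below the CTL responses of -0.13 to 0.27. In bulk RNA, fewer undeleted cells and less transcript per cell cannot be told apart.

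The 10 genes with the smallest p in each direction are given next by value. None was called, and they were selected on that p, so their differences are a description. All 20 kept their sign without library 4.24 and in the pairs. The unadjusted p stayed under 0.05 in 20 of 20 without the library and in 18 of 20 in the pairs. Both fits reuse the libraries the genes were picked in, so this is no independent support.

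Among the 10 with a negative difference (-2.59 to -0.58), 7 rose in CTL and 4 rose in CKO on stimulation. Klf10 encodes a zinc-finger repressor induced by TGF-beta (ENSMUSG00000037465; chromosome 15, 38291463 to 38300706). It measured 17.7 to 23.4 CPM (median 19.8) in CTL at 0 h and 15.8, 18.5, 16.4, 14.9 and 18.6 CPM at 6 h. The CKO libraries measured 22.9 to 35.7 CPM (median 27.2) at 0 h and 14.1, 12.7 and 14.8 CPM at 6 h. The CKO libraries thus overlapped CTL at 0 h only at its upper edge and lay below all 5 CTL libraries at 6 h. Klf10 fell by 1.04 in CKO and by 0.27 in CTL, and the difference was -0.77 ± 0.17 (unadjusted p = 0.000201; -0.73 without library 4.24). It was already higher in CKO at 0 h (log2 difference 0.49, adjusted p = 0.0147), and the 6 h difference between genotypes of -0.28 was not called (adjusted p = 0.239).

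Cdkn1a encodes p21, an inhibitor of cyclin-dependent kinases and a classical p53 target (ENSMUSG00000023067; chromosome 17, 29090976 to 29100727). It measured 0.745 to 1.72 CPM (median 1.11) in CTL at 0 h and 37.9, 31.0, 22.3, 17.2 and 41.1 CPM at 6 h. In CKO it measured 1.39 to 3.49 CPM (median 2.20) at 0 h and 22.9, 16.3 and 19.9 CPM at 6 h. The groups overlapped at both times, yet every CKO pair changed less (2.40 to 2.93 on the log2 scale) than every CTL pair (3.06 to 4.44). Cdkn1a rose by 4.69 in CTL and by 3.04 in CKO, a difference of -1.66 ± 0.38 (95% interval -2.46 to -0.85; -1.64 without library 4.24; adjusted p = 0.672). Its level was higher in CKO at 0 h (log2 difference 1.05, adjusted p = 0.0263), and at 6 h the genotypes differed by -0.60 (adjusted p = 0.247).

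Phlda3, another p53 target and a repressor of Akt signalling, had the same shape. It measured 0.861 to 1.69 CPM (median 1.39) in CTL at 0 h and 12.4, 3.77, 6.23, 5.86 and 17.1 CPM at 6 h, against 2.28 to 3.98 CPM (median 3.24) in CKO at 0 h and 7.22, 6.34 and 7.13 CPM at 6 h. The CKO libraries lay above all CTL libraries at 0 h and within their range at 6 h. Phlda3 rose by 2.81 in CTL and by 1.12 in CKO, a difference of -1.69 ± 0.49 (-1.88 without library 4.24). In the pairs its difference was -1.26 with an unadjusted p of 0.0653, and the CTL and CKO responses overlapped.

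Il4, the cytokine that defines type 2 helper cells, rose in both genotypes. It measured 1.22 to 2.62 CPM (median 1.85) in CTL at 0 h and 20.5, 51.7, 31.3, 6.71 and 17.6 CPM at 6 h, the highest of these in library 4.24. Its CKO levels were 1.55 to 4.71 CPM (median 2.83) at 0 h and 9.70, 7.64 and 12 CPM at 6 h. The 3 stimulated CKO libraries thus lay between the lowest CTL library, 5.13, and the other 4. Il4 rose by 3.73 in CTL and by 1.72 in CKO, and the difference of -2.02 ± 0.57 became -1.58 without library 4.24.

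Lmna encodes the nuclear envelope proteins lamin A and C. It measured 6.06 to 10.6 CPM (median 8.57) in CTL at 0 h and 12, 25.1, 12.8, 9.24 and 8.24 CPM at 6 h, and 15.7 to 24.5 CPM (median 19.3) in CKO at 0 h and 12.8, 14.0 and 14.2 CPM at 6 h. The genotypes did not overlap at 0 h, where CKO was higher by 1.22 (adjusted p = 0.00326), and differed by 0.03 at 6 h (adjusted p = 0.957). The difference of responses was -1.19 ± 0.34, and -0.84 without library 4.24, which held the CTL value of 25.1 CPM.

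The other 5 were Pmepa1, Aig1, Acacb, Fbxo41 and Drc1. Pmepa1, a TGF-beta-induced inhibitor of TGF-beta signalling, rose by 1.83 in CTL and by 1.05 in CKO (difference -0.78 ± 0.23, -0.61 without library 4.24). Aig1, a lipid hydrolase, rose by 0.56 in CTL and changed by -0.02 in CKO (adjusted p = 0.925; difference -0.58 ± 0.15, -0.50 without library 4.24), and its 5 CTL pairs changed by 0.21 to 0.74 against -0.02 to 0.12 in CKO. Acacb, the acetyl-CoA carboxylase of the mitochondrial surface, fell by 1.52 in CKO and changed by -0.18 in CTL (adjusted p = 0.515; difference -1.34 ± 0.35, -1.04 without library 4.24). Fbxo41 and Drc1 had means of 1.61 and 1.99 CPM and moved most when library 4.24 was left out, from -1.84 to -1.27 and from -2.59 to -1.81. Drc1 is known as a structural protein of motile cilia; its 6 CKO libraries at 0 h (2.40 to 6.76 CPM) lay above all 6 CTL libraries (0.957 to 2.30 CPM). At 6 h Drc1 measured 0.216 to 0.49 CPM in CKO and 0.254 to 2.03 CPM in CTL.

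In 6 of these 10 genes the CKO and CTL pairs did not overlap, where 3.07% of all genes had pairs that did not overlap in either direction; the genes were picked on the same contrast, so nothing is read from that count. A difference between genotypes was called at 0 h but not at 6 h in 5 of the 10 (Klf10, Cdkn1a, Lmna, Phlda3 and Fbxo41), each higher in CKO. It was called at 6 h but not at 0 h in 1 (Aig1). The difference of responses is the genotype difference at 6 h minus that at 0 h. Genes picked for a negative one therefore tend to be higher in CKO at 0 h or lower at 6 h by construction, and nothing is read from these counts. Over all genes, CKO was higher in 1.02% and lower in 0.935% at 0 h (1.95% in all), and higher in 0.533% and lower in 0.249% at 6 h (0.782% in all; 29 genes against 113 with the library number as a block).

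**Figure D3:**
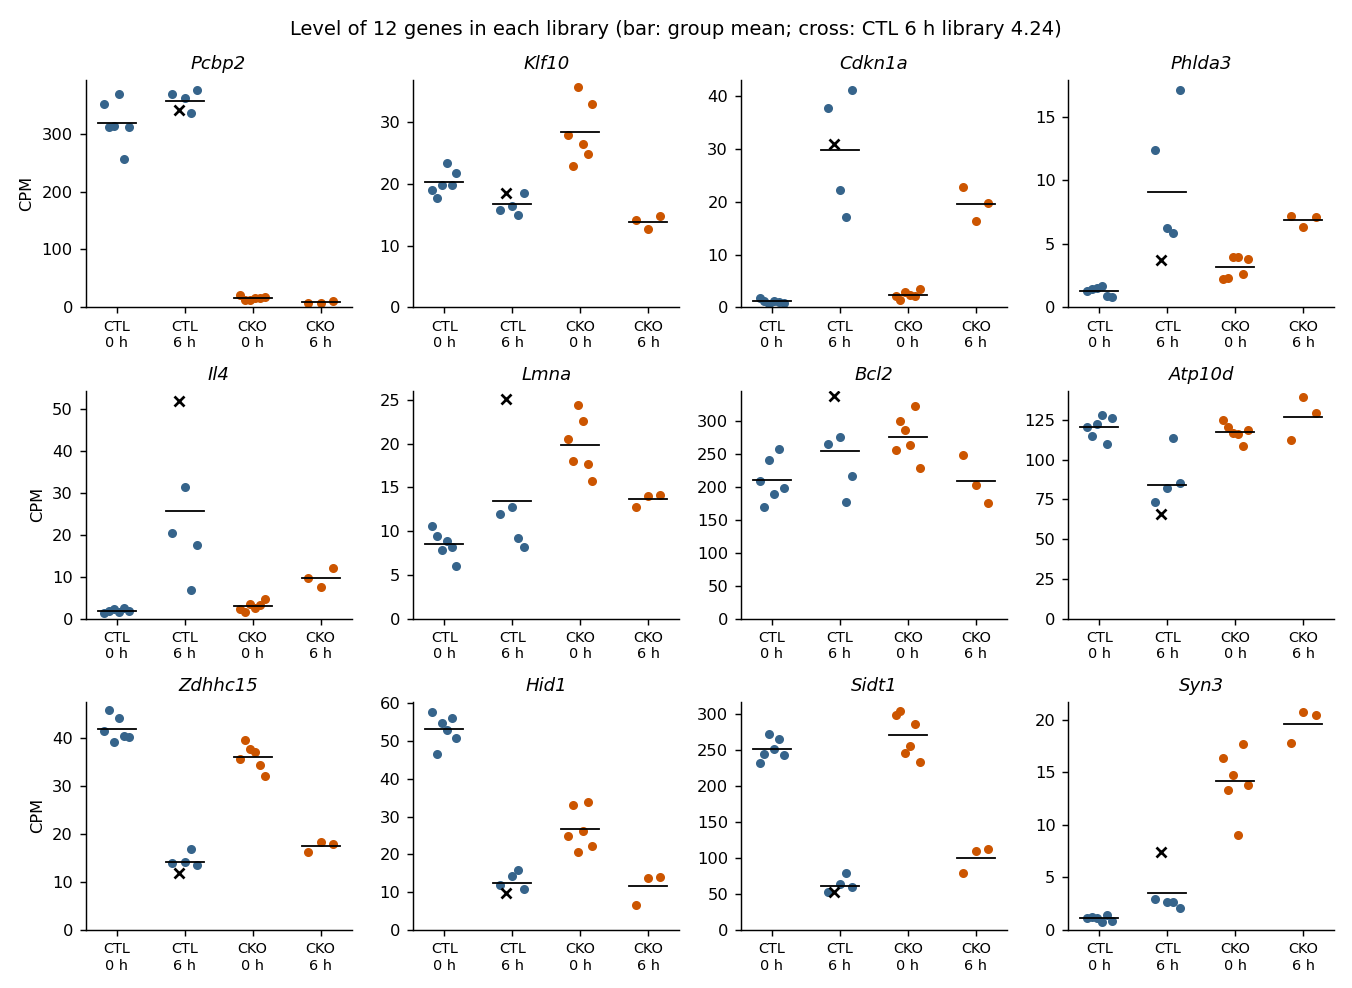
Level (CPM, linear axes from 0) of 12 genes in each library of the 4 groups; points are libraries, bars are group means and the cross is CTL 6 h library 4.24. Cdkn1a rises in both genotypes, Lmna is apart at 0 h and together at 6 h, and Zdhhc15 falls from a mean of 42.0 to 14.1 CPM in CTL and from 36.1 to 17.5 CPM in CKO.

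Among the 10 with a positive difference (0.41 to 0.86), 9 fell in CTL and 8 fell in CKO, with smaller estimated falls in CKO. Zdhhc15, an X-linked gene for a protein palmitoyltransferase (ENSMUSG00000033906; chromosome X, 104536969 to 104671064), measured 39.3 to 45.9 CPM (median 41.1) in CTL at 0 h and 14.0, 11.8, 14.2, 16.8 and 13.6 CPM at 6 h. In CKO it measured 32.1 to 39.6 CPM (median 36.4) at 0 h and 16.2, 18.4 and 18 CPM at 6 h. CKO lay lower at 0 h with a slight overlap and higher at 6 h with a slight overlap. Zdhhc15 fell by 1.57 in CTL and by 1.04 in CKO, a difference of 0.53 ± 0.12 (95% interval 0.28 to 0.78; 0.48 without library 4.24; adjusted p = 0.672). Every CKO pair changed less (-0.90 to -1.09) than every CTL pair (-1.34 to -1.87).

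Atp10d encodes a P4-type ATPase that moves lipids between membrane leaflets, and the annotation lists the mouse gene as a polymorphic pseudogene (ENSMUSG00000046808; chromosome 5, 72203329 to 72298775). It measured 110 to 128 CPM (median 122) in CTL at 0 h and 73.4, 65.8, 82.1, 114 and 85.1 CPM at 6 h. Among CKO libraries it measured 109 to 125 CPM (median 118) at 0 h and 112, 140 and 129 CPM at 6 h. The genotypes were alike in range at 0 h, and at 6 h 4 of the 5 CTL libraries lay below all CKO libraries. Atp10d fell by 0.52 in CTL and changed by 0.11 in CKO (adjusted p = 0.510), a difference of 0.63 ± 0.16 (0.56 without library 4.24). Its level at 6 h was higher in CKO by 0.60 (adjusted p = 0.0228).

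Sidt1, a membrane protein implicated in nucleic acid uptake, measured 232 to 273 CPM (median 248) in CTL at 0 h and 51.8, 52.3, 64.1, 79.0 and 59.8 CPM at 6 h. The CKO values were 233 to 304 CPM (median 270) at 0 h and 79.2, 109 and 112 CPM at 6 h, above every CTL library of that time. Sidt1 fell by 2.03 in CTL and by 1.43 in CKO, a difference of 0.60 ± 0.17 (0.55 without library 4.24).

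Hid1, which acts in Golgi trafficking, measured 46.6 to 57.8 CPM (median 53.9) in CTL at 0 h and 12, 9.78, 14.4, 15.7 and 10.7 CPM at 6 h. CKO libraries held 20.6 to 33.8 CPM (median 25.6) at 0 h and 6.66, 13.7 and 14.1 CPM at 6 h. Hid1 was lower in CKO at 0 h by 0.99 (adjusted p = 0.00252) and differed by -0.13 at 6 h (adjusted p = 0.717), which gave a difference of responses of 0.86 ± 0.26 (0.80 without library 4.24). Acsf2, an acyl-CoA synthetase of mitochondria, had the same shape, lower in CKO at 0 h by 0.69 (adjusted p = 0.00392) and different by -0.02 at 6 h (difference of responses 0.67 ± 0.20, 0.63 without library 4.24).

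Of the other 5, Sema4a (a semaphorin), Pglyrp2 (a peptidoglycan amidase), Prdm10 (a zinc-finger factor) and Snn (stannin) fell in both genotypes, with differences of 0.63 ± 0.20, 0.61 ± 0.19, 0.41 ± 0.10 and 0.45 ± 0.14 (0.59, 0.54, 0.39 and 0.42 without library 4.24). Wdr62, which encodes a centrosome and spindle protein, rose in both, by 0.91 in CTL and by 1.56 in CKO (difference 0.65 ± 0.20, 0.55 without library 4.24). A difference between genotypes was called at 0 h but not at 6 h in 2 of the 10 (Acsf2 and Hid1), at 6 h but not at 0 h in 3 (Atp10d, Sidt1 and Snn), and at neither time in 5. The CKO and CTL pairs did not overlap in 2 of the 10 (Zdhhc15 and Atp10d), where 3.07% of all genes had such pairs. These counts too depend on how the genes were picked, and nothing is read from them. The plot of the leading differences shows that the positive ones moved little when library 4.24 was left out.

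**Figure D4:**
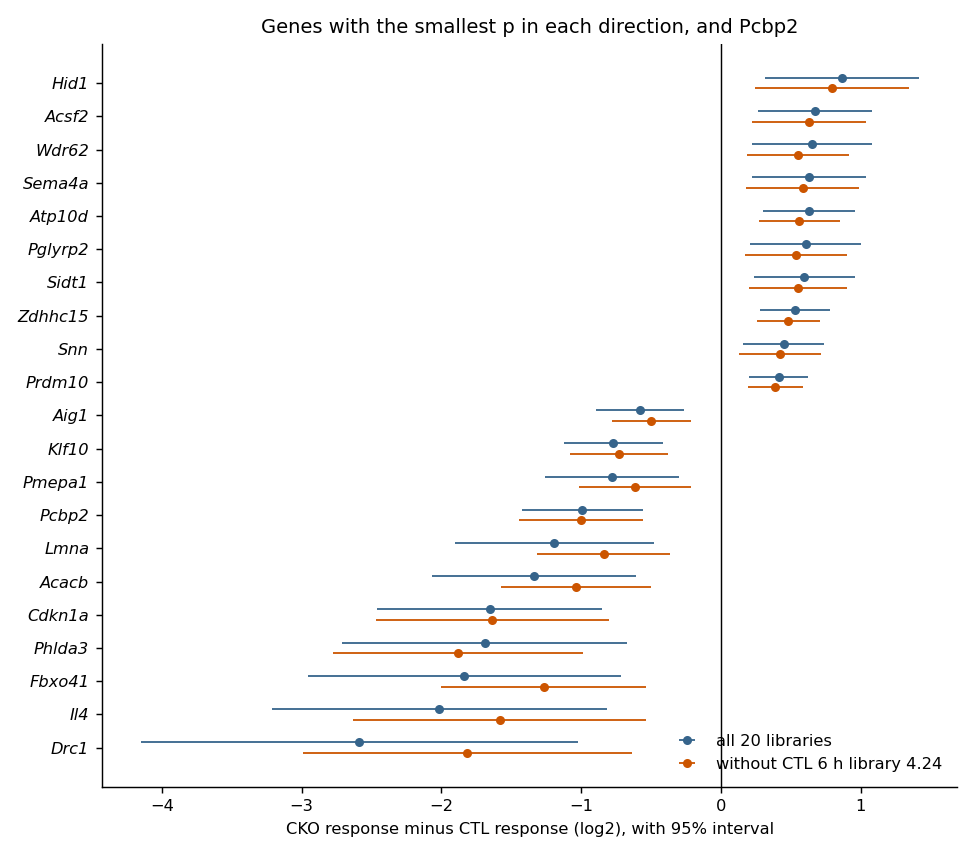
Difference of responses (CKO minus CTL, log2; x axis) with its 95% interval for the 10 genes with the smallest p in each direction and Pcbp2, with all 20 libraries (blue) and without CTL 6 h library 4.24 (orange). No interval crosses 0 because the genes were selected for a small p, and none was called after adjustment; Drc1 and Fbxo41 move furthest between the fits.

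Gene groups of the activation programme are described by counts and medians from 31 lists. In every list 0 members were called for the difference of responses, against 0% of all genes. Over all genes 27.8% rose and 24.1% fell in CTL, and 16.4% rose and 17.7% fell in CKO. CTL has 5 stimulated libraries and CKO 3, and fewer genes were called in CKO (4922 against 7501). A smaller number of called members in CKO is therefore not read as a weaker response. Of the 27 early activation factors, 20 rose in CTL and 20 in CKO, 19 of them in both, against 27.8% and 16.4% of all genes. Their median response was 1.70 in CTL and 1.58 in CKO, and their median difference was -0.12 (-0.18 without library 4.24 and -0.04 in the pairs), beside -0.043 over all genes. The differences ran from -0.78 to 2.06, and 20 of the 27 were negative. Over all genes 8040 of 14446 were negative, and 4094 of the 9013 with a mean of at least 10 CPM. Nr4a1, Nr4a3, Egr3, Myc and Atf3 were picked after their values were seen and do not stand for the list. Nr4a1 rose by 3.52 and 3.10 in CTL and CKO, Nr4a3 by 4.45 and 4.11, Egr3 by 1.70 and 1.77, Myc by 2.44 and 2.53, and Atf3 by 5.08 and 5.01. Without library 4.24 their CTL responses were 3.59, 4.53, 1.96, 2.46 and 4.98. Egr2, a factor that restrains T cell activation, had the smallest p in the list. It measured 76.5 to 124 CPM in CTL at 6 h and 117, 54.4 and 69.7 CPM in CKO, and its difference was -0.78 ± 0.37 (unadjusted p = 0.0470; -0.82 without library 4.24). Nfkb1, the most abundant member, rose by 1.51 in CTL and by 1.26 in CKO (difference -0.25, -0.34 without library 4.24). The intervals of 10 of the 27 factors lay within a factor of 2, so larger differences were not excluded for the rest.

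Of 14 NF-kB feedback genes, 10 rose in CTL and 9 in CKO, against 27.8% and 16.4% of all genes. Their median difference was -0.08 (-0.17 without library 4.24 and 0.03 in the pairs). Nfkbia, the inhibitor that is resynthesised on NF-kB activation, rose by 1.29 in CTL and by 0.87 in CKO, a difference of -0.42 ± 0.25 that was -0.19 without library 4.24 and -0.26 in the pairs. In that library it measured 723 CPM against 349 to 432 in the other 4. Nfkbib rose by 1.48 and 1.11 (difference -0.37, -0.29 without library 4.24).

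Of 22 cytokine genes that were tested, of 26 listed, 16 rose in CTL and 14 in CKO, 14 of them in both. The median difference was -0.20 (-0.16 without library 4.24 and -0.20 in the pairs), and 16 of 22 differences were negative. Over all genes 8040 of 14446 were negative, and 4094 of the 9013 with a mean of at least 10 CPM. Il4 and Fasl had an unadjusted p under 0.05, both negative. The signature cytokines, named after their values were seen, rose in both genotypes: Il2 by 6.04 in CTL and 5.92 in CKO, Tnf by 3.05 and 2.84, and Ifng by 2.33 and 1.90. Without library 4.24 the CTL responses of these 3 were 5.97, 3.04 and 2.20. Ltb, the most abundant of the list, measured 458 to 683 CPM at 0 h and 506 to 596 CPM at 6 h, with changes of -0.10 and -0.01 that were not called. Of 7 chemokines tested, 6 rose and Ccl5 fell in each genotype. Their median difference was -0.68 (-0.52 without library 4.24 and -0.69 in the pairs), and the smallest p was that of Xcl1 (-1.15 ± 0.58, unadjusted p = 0.0635; -0.90 without library 4.24). Intervals were wide here: 0 of 7 lay within a factor of 2.

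Of 11 genes of the interleukin 2 receptor and STAT5 axis, 6 rose in both genotypes, and the median difference was 0.02 (0.01 without library 4.24 and 0.18 in the pairs). Il2ra encodes CD25, the receptor chain against which the cells were sorted. It measured 8.77 to 22.7 CPM in CTL at 0 h and 261, 116, 160, 102 and 322 CPM at 6 h, and in CKO 11.3 to 31.0 CPM at 0 h and 321, 155 and 124 CPM at 6 h, with overlap at both times. Its difference was -0.45 ± 0.53 (-0.58 without library 4.24). Socs1, a feedback inhibitor of cytokine receptors, rose by 2.41 in CTL and by 1.58 in CKO (difference -0.83 ± 0.31, -0.61 without library 4.24). Its stimulated CTL libraries measured 150 to 339 CPM, the highest in 4.24, and the CKO libraries 236, 147 and 115 CPM.

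Of 16 costimulatory and inhibitory receptors, 7 rose and 6 fell in CTL, and 5 rose and 5 fell in CKO. The median difference was -0.35 (-0.29 without library 4.24 and -0.19 in the pairs). Tnfrsf9, which encodes the costimulatory receptor 4-1BB, rose by 2.79 in CTL and by 2.09 in CKO (difference -0.70 ± 0.35, unadjusted p = 0.0595; -0.68 without library 4.24 and -0.41 in the pairs).

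The interferon-inducible GTPases, effectors of cell-autonomous immunity, rose throughout. All 17 rose in CTL and all 17 in CKO, with median responses of 2.46 and 2.49 and a median difference of 0.08 (-0.03 without library 4.24 and 0.06 in the pairs). Gbp2 measured 64.7 to 114 CPM in CTL at 0 h and 2786, 3018, 3457, 2356 and 1933 CPM at 6 h. In CKO it measured 54.9 to 94.3 CPM at 0 h and 2773, 2381 and 2077 CPM at 6 h, within the CTL range. Its difference was 0.12 ± 0.26 (0.17 without library 4.24), and the intervals of 15 of the 17 lay within a factor of 2. Gbp11 was the exception by p, with rises of 4.67 in CTL and 3.99 in CKO, a difference of -0.68 ± 0.29 (-0.72 without library 4.24) and pairs that did not overlap. Of 27 genes of the type I interferon response, 10 rose and 10 fell in CTL, 6 rose and 10 fell in CKO, and 0 reached an unadjusted p under 0.05.

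Most growth genes that passed the test rose, and most estimated differences of responses in these lists were negative. Of 30 genes of Myc-driven ribosome biogenesis, 26 rose in CTL and 15 in CKO, all 15 also in CTL, against 27.8% and 16.4% of all genes. Over all genes 8040 of 14446 differences were negative, and 4094 of the 9013 with a mean of at least 10 CPM. Of the 30 in this list 29 were negative. The median difference was -0.21 (-0.29 without library 4.24 and -0.21 in the pairs) and the median response 0.76 in CTL and 0.55 in CKO. None of the 30 reached an unadjusted p under 0.05 (smallest 0.0579, Nop16, -0.57 ± 0.28; -0.54 without library 4.24). Genes of one programme vary together over libraries, so the 29 are not 29 observations. Nop16 changed by 0.63 in the pair CTL 5.13 and by 1.55 to 2.13 in the other CTL pairs. In CKO it changed by 0.50 in 5.13, 0.73 in 5.6 and 1.73 in 11.18. Only the number 5.13 has both genotypes at 6 h, so number and genotype cannot be told apart for the rest. Ncl, a nucleolar protein, measured 497 CPM in CTL at 0 h and 1198 at 6 h, and 513 and 1072 CPM in CKO. Of 27 translation factors and tRNA synthetases, 17 rose in CTL and 12 in CKO, the median difference was -0.13 (-0.16 without library 4.24 and -0.07 in the pairs), and all 27 intervals lay within a factor of 2. Of 21 genes of the Atf4 amino acid stress programme that were tested, 11 rose in CTL and 10 in CKO, with a median difference of -0.20 (-0.14 without library 4.24 and -0.16 in the pairs).

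Of 16 heat shock and chaperone genes, 9 rose in CTL and 4 in CKO, against 27.8% and 16.4% of all genes. Their median difference was -0.15 (-0.21 without library 4.24 and -0.02 in the pairs). Hspe1, the mitochondrial chaperonin cofactor, rose by 0.83 in CTL and changed by 0.12 in CKO (difference -0.71 ± 0.31, unadjusted p = 0.0321; -0.55 and an unadjusted p of 0.0750 without library 4.24). Among metabolic lists the median difference was -0.06 for 21 cholesterol synthesis genes (-0.08 without library 4.24 and -0.01 in the pairs). For 20 glycolysis genes it was -0.14 (-0.16 without library 4.24 and -0.02 in the pairs), and 13 of the 20 differences were negative. Over all genes the median was -0.043 (0.004 without library 4.24 and -0.013 in the pairs). In both lists 0 members had an unadjusted p under 0.05. For 18 G1 cyclin and E2F genes the median was -0.09 (-0.10 without library 4.24 and -0.16 in the pairs); 3 rose and 7 fell in CTL, and 2 rose and 8 fell in CKO. For 26 replication and mitosis genes it was -0.09 (0.01 without library 4.24 and -0.13 in the pairs), and 1 rose and 2 fell in each genotype. Pcna, the replication clamp, rose by 0.40 in CTL and changed by 0.16 in CKO (adjusted p = 0.346; difference -0.23, -0.22 without library 4.24).

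Of 18 p53 target genes, 11 rose in CTL and 9 in CKO, the 9 all in both, against 27.8% and 16.4% of all genes. At an unadjusted p under 0.05 there were 4 negative and 0 positive differences, where all genes gave 3.2% and 1.81%; the list was written with earlier results of these data known, and Cdkn1a was in view then. Beside Cdkn1a and Phlda3 these were Bax and Fas, named after their values were seen. Bax, a promoter of mitochondrial apoptosis, rose by 0.81 in CTL and by 0.38 in CKO (difference -0.42 ± 0.14, -0.36 without library 4.24). Fas, the death receptor, rose by 1.06 and 0.66 (difference -0.40 ± 0.15, -0.34 without library 4.24). Other members, of which Mdm2 and Btg2 were also picked after their values were seen, had positive estimates: the difference was 0.13 ± 0.12 for Mdm2, 0.05 ± 0.13 for Btg2 and 0.09 ± 0.18 for Trp53inp1, the most abundant (0.08, 0.03 and 0.01 without library 4.24). The median of the list was -0.15 (-0.16 without library 4.24 and -0.11 in the pairs), although its median response was 0.38 in CTL and 0.45 in CKO, in the opposite order.

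Bcl2, the survival factor, was the BCL2 family member with the smallest p. It measured 169 to 257 CPM (median 204) in CTL at 0 h and 264, 337, 275, 178 and 217 CPM at 6 h, against 229 to 323 CPM (median 275) in CKO at 0 h and 248, 203 and 176 CPM at 6 h. The groups overlapped at both times, with CKO toward the top at 0 h and toward the bottom at 6 h. Neither response was called (0.27 in CTL, adjusted p = 0.127; -0.40 in CKO, adjusted p = 0.0810), and the difference was -0.67 ± 0.23 (-0.54 without library 4.24). Mcl1, the most abundant member, rose by 0.57 in CTL and by 0.54 in CKO, with a difference of -0.03 ± 0.13 (-0.07 without library 4.24). In the list of 14 tested, 7 rose in CTL and 6 in CKO, against 27.8% and 16.4% of all genes. At an unadjusted p under 0.05 there were 3 differences, all negative (2 without library 4.24), where all genes gave 3.2% negative and 1.81% positive. The median difference was -0.10 (-0.16 without library 4.24 and -0.12 in the pairs).

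Genes of antigen receptor signalling mostly fell. Of 34, 22 fell in CTL and 18 in CKO, the 18 all in both, and 5 and 6 rose. The median difference was 0.08 (0.05 without library 4.24 and 0.11 in the pairs), and 33 of 34 intervals lay within a factor of 2. Cblb, a ubiquitin ligase that dampens receptor signals, rose by 1.46 in CTL and by 1.81 in CKO. Its stimulated CTL libraries measured 422, 332, 465, 539 and 446 CPM and the CKO libraries 526, 574 and 534 CPM. The difference was 0.35 ± 0.14 (unadjusted p = 0.0188; 0.27 without library 4.24). The CD3 chains had differences of -0.08 ± 0.19 for Cd3d and 0.03 ± 0.14 for Cd3e (0.09 and 0.10 without library 4.24). Ptprc (CD45) fell by 0.40 in CTL and changed by -0.23 in CKO, a difference of 0.17 that was 0.04 without library 4.24. That library measured 1261 CPM against 2218 to 2454 in the other 4, and the CTL response without it was -0.27.

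Of 24 genes of the naive state and of homing, 7 rose and 8 fell in CTL, 7 rose and 6 fell in CKO, and the median difference was 0.14 (0.20 without library 4.24 and 0.12 in the pairs). Id3, an inhibitor of E proteins that holds naive T cells at rest, went the other way from this median. It measured 40.2 to 44.2 CPM (median 43.2) in CTL at 0 h and 26.3, 30.6, 19.5, 14.5 and 34.3 CPM at 6 h, and 42.4 to 61.9 CPM (median 51.9) in CKO at 0 h and 21.1, 11.1 and 17.2 CPM at 6 h. Id3 fell by 0.77 in CTL and by 1.68 in CKO (difference -0.90 ± 0.29, unadjusted p = 0.00494; -0.81 without library 4.24). Tcf7 fell by 0.69 in CTL and changed by -0.35 in CKO (adjusted p = 0.0897; difference 0.35, 0.29 without library 4.24). Among 18 T helper lineage factors the median difference was 0.02 (0.02 without library 4.24 and 0.09 in the pairs). Zbtb7b, which specifies the CD4 lineage, fell by 2.12 and 1.70 (difference 0.42, 0.30 without library 4.24).

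The regulatory T cell list, 13 genes with a median difference of -0.25 (-0.17 without library 4.24 and -0.02 in the pairs), was led by Capg, an actin-capping protein. Capg measured 56.3 to 95.9 CPM (median 66.3) in CTL at 0 h and 54.8 to 80.5 CPM at 6 h, and 86.8 to 160 CPM (median 127) in CKO at 0 h and 70.5, 80.3 and 78.0 CPM at 6 h. Capg was higher in CKO at 0 h by 0.86 (adjusted p = 0.00497) and differed by 0.14 at 6 h (adjusted p = 0.663), with a difference of responses of -0.72 ± 0.26 (-0.65 without library 4.24). The median responses of the list, 0.25 in CTL and 0.62 in CKO, stood in the opposite order to its median difference. Izumo1r, the most abundant, fell by 2.64 in CTL and by 2.89 in CKO (difference -0.25, -0.17 without library 4.24).

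Lists tied to RNA control stayed close to 0. Of 18 mRNA decay regulators, 0 had an unadjusted p under 0.05, the median difference was 0.05 (0.0035 without library 4.24 and 0.10 in the pairs) and all 18 intervals lay within a factor of 2; Tia1, the member with the smallest p, had 0.27 ± 0.17 (0.25 without library 4.24). Of 26 poly(C)-binding and splicing factors, Pcbp2 and Mbnl1 alone had an unadjusted p under 0.05, and the median was -0.01 (-0.07 without library 4.24 and -0.01 in the pairs). Mbnl1, a regulator of alternative splicing, fell by 0.30 in CTL and changed by -0.01 in CKO (difference 0.29 ± 0.13, 0.27 without library 4.24). Its level at 6 h was 967 to 1176 CPM in CTL and 1347, 1507 and 1521 CPM in CKO.

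**Figure D5:**
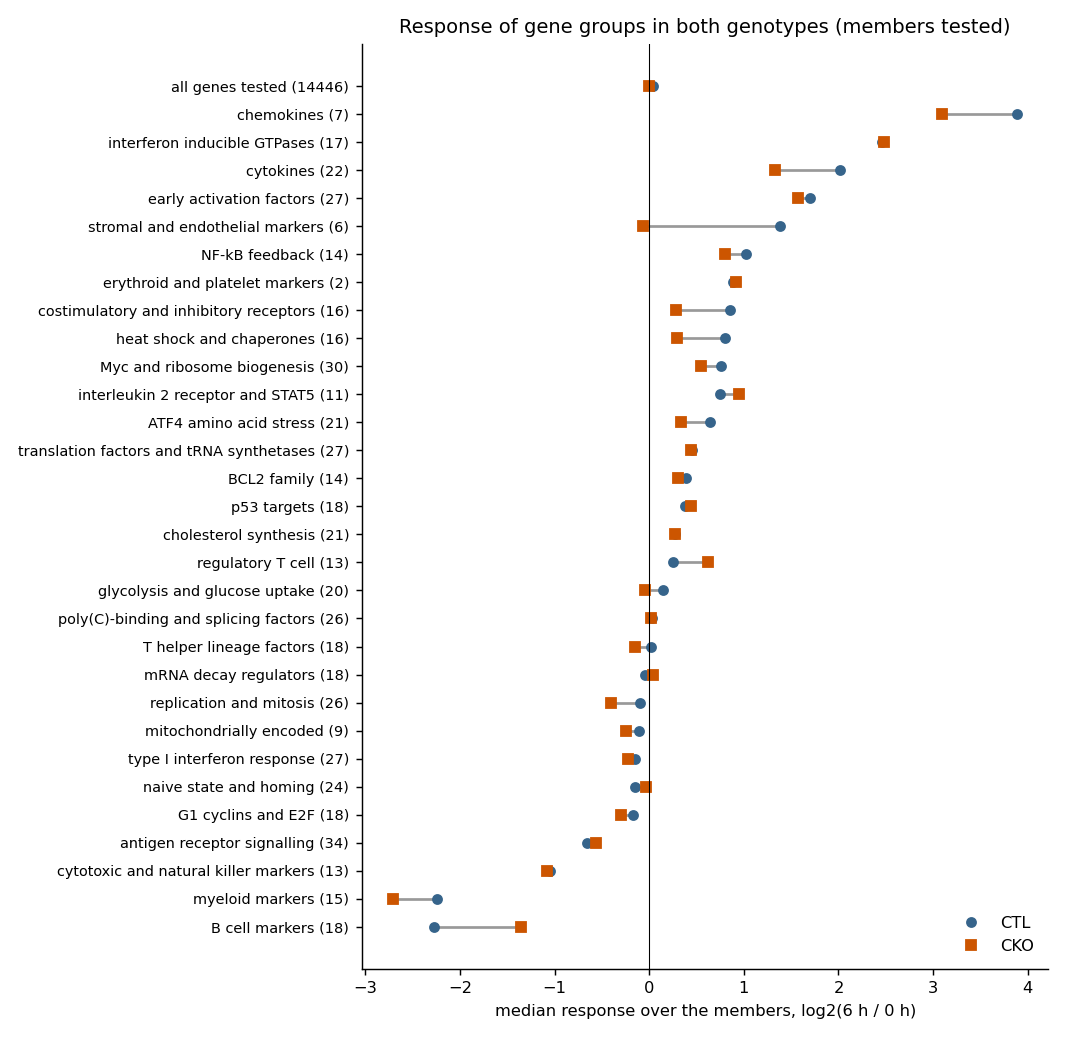
Median response (log2, 6 h against 0 h; x axis) over the tested members of each gene list in CTL (blue circles) and CKO (orange squares), with the number of members in brackets. The interferon-inducible GTPases lie close together (2.46 in CTL and 2.49 in CKO). The stromal and endothelial markers (1.38 and -0.06), B cell markers (-2.27 and -1.35) and chemokines (3.89 and 3.09) lie furthest apart.

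Genes known from earlier results of these data to be raised or lowered by Pcbp2 loss were followed through stimulation, and of 23 tested, 3 had a positive and 5 a negative difference at an unadjusted p under 0.05 (1.81% and 3.2% of all genes), and 4 and 4 without library 4.24. These genes were chosen for the genotype effect in the same libraries, so the counts support nothing further. Syn3, a synapsin, measured 0.774 to 1.45 CPM in CTL at 0 h and 2.94, 7.39, 2.63, 2.62 and 2.05 CPM at 6 h, and 9.06 to 17.7 CPM in CKO at 0 h and 17.8, 20.7 and 20.5 CPM at 6 h, with no overlap at either time. Syn3 rose by 1.67 in CTL and changed by 0.47 in CKO (adjusted p = 0.237), a difference of -1.2 ± 0.41 that was -0.75 without library 4.24, the CTL library at 7.39 CPM. Myo6, an actin motor, rose in both, by 1.11 and 0.81 (difference -0.30, -0.28 without library 4.24). Btbd2, Tecpr2 and Zmat1 kept a lower level in CKO at both times with differences of 0.23 ± 0.17, 0.07 ± 0.12 and -0.06 ± 0.20 (0.16, 0.06 and 0.13 without library 4.24).

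Ptgir, the prostacyclin receptor, measured 4.98 to 6.33 CPM in CTL at 0 h and 3.53, 3.37, 4.17, 4.06 and 2.79 CPM at 6 h, and 14.6 to 18.3 CPM in CKO at 0 h and 10.5, 18.9 and 19.6 CPM at 6 h. Ptgir fell by 0.58 in CTL and changed by 0.03 in CKO, a difference of 0.60 ± 0.22 (0.59 without library 4.24). Atp8b4, a phospholipid flippase, fell by 0.90 in CTL and changed by -0.13 in CKO, so that it was lower in CKO by 1.27 at 0 h (adjusted p = 0.000308) and by 0.51 at 6 h (adjusted p = 0.223). Its difference was 0.77 ± 0.27 (0.71 without library 4.24), with CKO pair responses of 0.27, -0.24 and -0.84 that overlapped those of CTL (-1.17 to -0.13). Among these 23 genes Epb41l5 moved from -1.34 ± 0.57 to -0.49 without library 4.24 (-0.81 in the pairs); that library held 22.6 CPM against 3.60 to 5.93 in the other 4 CTL libraries.

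Markers of the labelled cell type were present in every library. Cd4, the coreceptor, measured 833 to 1201 CPM in CTL and 1158 to 1405 in CKO at 0 h, and 300 to 684 CPM in CTL and 621 to 832 in CKO at 6 h. Cd4 fell by 1.2 in CTL and by 0.82 in CKO, a difference of 0.38 ± 0.24 (0.27 without library 4.24). The other markers were Cd3d, Cd3e, Cd3g, Cd5, Thy1, Trac and Lck. Over the 20 libraries their differences ran from -0.39 for Trac to 0.18 for Thy1, with Cd3g at -0.0033. With single libraries left out the difference of Trac was -0.48 to -0.17. Thy1 at 0 h had a mean of 729 CPM in CTL and 590 CPM in CKO.

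Markers of other cells moved with time. All 18 B cell markers were tested, and 17 had a positive difference (median 0.61, and 0.83 without library 4.24), but the median was -0.14 in the pairs. Their summed level was 887 to 2220 CPM in CTL and 1125 to 2268 in CKO at 0 h, and 198 to 432 CPM in CTL and 291 to 656 in CKO at 6 h. Of the 18, 15 fell in CTL and 6 in CKO, against 24.1% and 17.7% of all genes. The highest sum among stimulated libraries, 656 CPM, was that of CKO 5.6, and the number 5.6 has no CTL library at 6 h. The part of such cells in the differences of other genes was not tested.

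Myeloid markers (15 of 19 tested) summed to 76.3 to 211 CPM in CTL and 119 to 257 in CKO at 0 h, and 7.59 to 48.2 in CTL and 13.4 to 67.6 in CKO at 6 h; 11 fell in each genotype, and the median difference was -0.18 (0.18 without library 4.24 and -0.46 in the pairs). The 13 cytotoxic and natural killer markers had a median difference of 0.05 (0.26 without library 4.24 and -0.39 in the pairs), and 2 of 12 erythroid and platelet markers were tested. Stromal and endothelial markers, 6 of 12 tested, had a median of -1.72 that was -0.37 without library 4.24 and -1.28 in the pairs. In that library Col1a1 measured 11.7 CPM against 1.12 to 2.26 in the other 4 CTL libraries. The 9 mitochondrially encoded genes tested, of 13 listed, had a median of -0.16 that was 0.21 without library 4.24 and -0.27 in the pairs. The summed level of this list in the CTL libraries at 6 h was 19149 CPM in 4.24 and 10338 to 12724 in the other 4, and 9821 to 10788 in CKO. No gene of any of these lists was called.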

How the data were processed

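RNA sequencing measured gene expression in 20 libraries. The authors deposited whole-number counts per Ensembl gene, not normalized, in 1 table with 0 columns of other samples. Tools listed in the submitters' processing notes are STAR 2.5.2b, Subread 1.5.2 with featureCounts, and Trimmomatic 0.36, with build GRCm38; per the labels' protocols the mRNA libraries were stranded. For counting, neither the annotation release nor the strand setting was stated, so overlapping and antisense genes are uncertain. Of 49315 gene IDs, 49056 matched GENCODE M21 (symbols, coordinates) and 259 did not.

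Counts were fitted with edgeR 4.0.16 in R 4.3.3 (glmQLFit robust, glmQLFTest; 4 groups, TMM) on the 14446 genes with a mean of at least 1 CPM. P-values are two-sided and adjusted by Benjamini and Hochberg over these genes (threshold 0.05). Levels are CPM of the TMM-scaled library, responses log2 changes, values after ± standard errors. Changes of single pairs are log2 differences of CPM plus 1. Pair fits kept libraries whose number occurs at both times in a genotype. The script was tested on simulated data. Totals ran from 26427467 to 85608113 counts; precision rests on the spread between libraries. No library was a copy of another of its group (chi-square per degree of freedom 21.5 to 303 over 43 within-group pairs). This check did not cover pairs of libraries from different groups.

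The sex label was kept out of the fit: CKO number 5.6 is labelled M at 0 h and F at 6 h, and 2 CKO libraries at 0 h labelled M (4.24 and 5.6) had Xist at 1127 and 1281 CPM, against 0.703 to 3.41 in the other 4. Residuals from group means of same-numbered libraries correlated at 0.356 to 0.505 between CTL times (5 pairs), 0.206 to 0.466 between CKO times (3), 0.307 to 0.570 between genotypes at 0 h (5) and 0.561 at 6 h (1), so the numbers pair libraries, by the data and not by the labels.

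The genes and lists were chosen with earlier results of these data known. Named are Pcbp2, up to 15 called genes or, with fewer than 10 calls, the 10 genes with the smallest p in each direction (without Y-linked genes, Xist, predicted models and antigen receptor segments), from each list up to 3 called members or, with none called, the member with the smallest p and the most abundant, and the members of the Pcbp2-loss list. Alternatives were RLE factors, DESeq2 1.42.0, other filters, a sex or Ddx3y term, number blocks, labelled males, and leaving out libraries. The additive block was the number, and the random block (limma 3.58.1) was number and genotype together. Leaving out all 3 libraries numbered 4.24 or 5.6 was added after seeing the data. Results for a few genes are not reported here.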

Additional observations from a re-analysis of the deposited data

Results flagged for a closer look

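Levels of the named genes and of markers, and measures of each library, were examined for a single library far from the rest of its group, in groups of 5 or 6 libraries, by the gap from that library to its nearest neighbour as a share of the group's range, set against Dixon's 95% critical value. Of 319 such groups 29 (9.09%) held one, and chance alone is taken to flag about 1 in 20 by the level of that criterion; the groups share libraries and are not independent. Of the 29, 15 were CTL library 4.24 at 6 h.

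In CTL 4.24 at 6 h the total was 26.4 M counts against 62.4 to 69.4 M in the other 4, and the median correlation was 0.875 against 0.979 to 0.981. It was high for Lmna (25.1 CPM against 8.24 to 12.8), Fbxo41 (4.82 against 1.12 to 1.85), Nfkbia (723 against 349 to 432), Tyms (18.6 against 4.48 to 5.64), mt-Nd6 (1469 against 258 to 401), Syn3 (7.39 against 2.05 to 2.94) and Epb41l5 (22.6 against 3.60 to 5.93). It was also high for Zmat1 (32.1 against 18.2 to 20.1), C1qc (0.507 against 0.0152 to 0.127), Col1a1 (11.7 against 1.12 to 2.26) and Trac (693 against 314 to 421). It was low for Ptprc (1261 against 2218 to 2454) and Ddit4 (19.4 against 26.6 to 29.2).

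CTL 5.13 was high at 0 h for Pmepa1 (20.1 against 12.8 to 15.2 CPM), Capg (95.9 against 56.3 to 70.7) and Hspe1 (77.1 against 61.4 to 66.5). At 6 h it was low for Tnfrsf9 (117 against 139.8 to 145) and high for Atp8b4 (38.6 against 21.7 to 26.3).

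CTL 5.6 at 0 h was low for Cd5 (398 against 501 to 563 CPM), Srebf2 (271 against 357 to 408) and Hsp90ab1 (870.2 against 1269 to 1478), and high for Zmat1 (20.8 against 15.2 to 17.3). At 0 h, CKO 11.18 was low for Slc3a2 (80.0 against 90.0 to 95), CTL 4.24 was high for Epb41l5 (3.17 against 1.89 to 2.19) and CKO 9.20 was high for Btbd2 (28.5 against 20.7 to 22.3). The median correlation at 0 h was low in CTL 4.24 (0.969 against 0.977 to 0.982) and CKO 4.24 (0.977 against 0.983 to 0.984).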

How the results depend on the processing

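The count of 0 calls for the difference of responses was also 0 under every alternative run except DESeq2 (1; 2 without CTL 4.24 at 6 h, Pcbp2 and Igkv6-32, an antigen receptor segment) and CKO 11.18 at 6 h left out (range over single libraries left out 0 to 1). Among list members DESeq2 called 1, the targeted gene Pcbp2. With the number as a replicate block, additive, the unadjusted p under 0.05 held for 389 genes and with pairs only for 344, with 0 calls in both. The CTL response gave 17034 calls with filterByExpr and 20476 without a filter, the CKO response 10107 and 9559, over more genes tested. The genotype difference at 0 h gave 565 calls in DESeq2, 135 without a filter, 175 with the sex label, 490 without CKO 4.24 and 5.6 at 0 h, 142 in labelled males, 707 and 107 without the 3 libraries numbered 4.24 or 5.6, and 159 to 730 with single libraries left out (730 without CTL 4.24 at 6 h; 181 without CTL 5.6 and 178 without CKO 9.20, both at 0 h). At 6 h it gave 395 in DESeq2, 71 with filterByExpr, 49 without a filter, 29 with the additive replicate block (113 without it), 15 in labelled males, 14 without the libraries numbered 5.6, and 18 to 483 with single libraries left out (at 6 h, 22 without CKO 5.13, 481 without CTL 5.13, 59 without CTL 9.20 and 65 without CTL 10.28). The slope of CKO on CTL responses was 0.732 to 1.01 with single libraries left out, 0.959 with the additive block and 0.956 without the libraries numbered 4.24. Beyond the smaller or larger numbers of genes and libraries, the cause was not tested. Pcbp2 and the 20 leading genes kept their sign in every alternative run. The 20 were picked on p in these libraries, and the alternatives refit the same libraries or most of them, so the kept sign is no independent support. With 3 stimulated CKO libraries the median 95% interval reached 0.483 log2 units to either side (0.386 without CTL 4.24 at 6 h), which limits what could be detected.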
